A study of Mus musculus with 12 samples.

Results

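The 40 genes described here code for proteins that copy DNA or carry the cell through mitosis, and they were taken by symbol from a table of raw counts that lists 18514 genes in mouse colorectal tissue. Of the 40 genes, 21 serve DNA replication and 19 serve mitosis, and all 40 passed the filter on low counts that left 15484 genes to be tested. The comparison of interest within this set was that of the replication genes with the mitosis genes, over all 12 libraries and in each of the 4 groups. The genes were listed by name, with earlier results of these data known.

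A cell that divides first duplicates its genome in S phase and then separates the copies in mitosis. Replication starts from origins at which ORC, Cdc6 and Cdt1 load the ring of Mcm2 to Mcm7, a helicase that Cdc45 and the GINS complex then switch on, and polymerases follow with the sliding clamp PCNA. Mitosis is driven by Cdk1 bound to cyclins A and B, is paced by Aurora and Polo kinases, and ends when the anaphase-promoting complex with its activator Cdc20 removes cyclin B. In the colon, dividing epithelial cells sit in the lower part of the crypts, and the genes of both processes are widely used as measures of proliferation.

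The study asked how swimming before and during a chemical model of colitis-associated colorectal cancer alters the colon. In that model a single injection of azoxymethane (AOM), a carcinogen, is followed by dextran sulfate sodium (DSS), which injures the colonic lining, in the drinking water. All animals were male C57BL/6 mice, bought at the age of 4 weeks. RNA was sequenced from colorectal tissue as 1 library per sample, with 3 samples per group. The Ctrl mice received neither AOM nor DSS and did not swim, and the untrained mice were put into shallow water in place of training. The Ctrl_Swim mice swam, with training that rose to 90 min per day and began 2 months before the experiment. The Model mice received AOM at 10 mg/kg and 3 cycles of 2% DSS, and the Model_Swim mice received the same and swam. Ages, doses and times are those of the study's methods, since the sample labels give only the treatment names. Each library is taken here as 1 mouse. The labels number the samples without saying more about the animals. The p-values set group differences against the spread between these samples. That is a spread between mice only if the samples are separate animals. The samples of Ctrl_Swim carry the numbers 2 to 4 and those of the other groups 1 to 3.

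Total counts ranged from 17256953 to 19451055 per library, so 3 counts correspond to 0.154 to 0.174 CPM, the unit of counts relative to the library total, and the 40 genes were covered by 60 to 6359 counts per mouse. CPM values below are scaled by the trimmed mean of M-values (TMM). All 8 markers of epithelium and all 8 of colonocytes that were examined had counts in every mouse. The libraries were not uniform in makeup. The summed level of 16 genes of pancreatic acinar cells reached 52449 CPM in Model 1 and 25653 CPM in Model 3, against 94.4 to 215 CPM in the other 10 mice, and 6 of the 16 (Cela2a, Cela3b, Try4, Try5, Amy2a5 and Cel) were at 0 in at least 1 mouse. The summed level of 7 genes of squamous epithelium ranged from 2.34 CPM in Ctrl_Swim 3 to 1223 CPM in Model 2, with Trp63, Krtdap and Dsg3 at 0 in at least 1 mouse. Tissue RNA of this kind cannot tell fewer dividing cells from less of a transcript per cell.

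The promoters of both sets were read first. E2F factors are known to act on replication genes, the MMB complex on mitosis genes and the DREAM complex on both. The 250 bases before each annotated start were taken from the RefSeq table of GRCm38.p6, which held 36 promoters of 32 of the 40 genes. Of these windows, 15 reach into the annotated span of their own gene, and some, as those of Cdc6 and Aurka, lie wholly inside it. The 21 replication promoters belong to 17 genes, with several windows each for Mcm7, Fen1 and Lig1. The 15 mitosis promoters belong to 15 genes. An E2F core (TTCCCGC or else TTCGCGC, and likewise TTGCCGC or else TTGGCGC, on either strand) was present in 47.6% of the 21 replication promoters, 20.0% of the 15 mitosis promoters and 7.89% of 32851 promoters in all. A cell cycle homology region (CHR, here TTTGAA or TTCGAA on either strand) was present in 23.8%, 46.7% and 17.1% in the same order, and a CCAAT box on either strand in 57.1%, 93.3% and 33.8%. A CHR together with a CCAAT box was found in 46.7% of mitosis promoters, 19.0% of replication promoters and 6.02% of all. Among the 10930 promoters with a GC content between 52.3% and 65.0%, the interquartile range of the members' promoters, the shares were 10.5% for the E2F core, 11.0% for the CHR, 34.6% for the CCAAT box and 4.03% for CHR with CCAAT box. E2F and CCAAT matches overlapped at 1 place, in the promoter of Ccnb1, and overlapping E2F matches on opposite strands were counted separately. A match shows only that the letters are present.

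**Figure D1:**
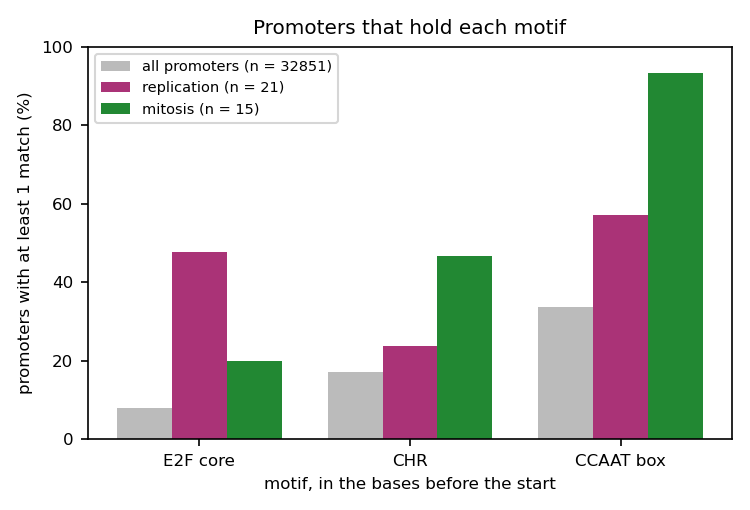
Share of promoters (%) with at least 1 match to each motif in the 250 bases before the start, for all promoters (grey, n = 32851), replication promoters (purple, n = 21) and mitosis promoters (green, n = 15). The E2F core was most frequent in the replication promoters (47.6%), and the CHR (46.7%) and the CCAAT box (93.3%) in the mitosis promoters.

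The promoters of 4 genes show the range, chosen as examples after the matches were seen, each printed 5′ to 3′ on the strand of its gene with the matches in capitals. Mcm6 (GRCm38.p6 chr1:128359706-128359955, minus strand) holds 4 E2F matches, which form 2 pairs that overlap on opposite strands, and 2 CCAAT boxes. Mcm2 (chr6:88898781-88899030, minus strand) holds no E2F match, 1 CHR and 1 CCAAT box. Ccnb2 (chr9:70421555-70421804, minus strand) holds 1 CHR and 3 CCAAT boxes. Cdk1 (chr10:69352913-69353162, minus strand) holds 2 E2F matches, 2 CHR matches and 3 CCAAT boxes. The windows of Cdt1, Rfc4, Lig1, Tyms and Birc5 held none of the 3 motifs.
Mcm6: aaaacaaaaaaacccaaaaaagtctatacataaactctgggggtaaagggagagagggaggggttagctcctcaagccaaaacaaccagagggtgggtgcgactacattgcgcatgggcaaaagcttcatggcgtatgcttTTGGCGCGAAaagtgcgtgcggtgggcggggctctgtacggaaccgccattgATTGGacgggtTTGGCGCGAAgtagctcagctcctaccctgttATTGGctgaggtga
Mcm2: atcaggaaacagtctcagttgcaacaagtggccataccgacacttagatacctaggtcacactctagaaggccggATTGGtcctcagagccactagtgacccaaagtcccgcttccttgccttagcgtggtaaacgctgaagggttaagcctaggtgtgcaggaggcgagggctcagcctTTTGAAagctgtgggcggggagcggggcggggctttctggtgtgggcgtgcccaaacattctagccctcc
Ccnb2: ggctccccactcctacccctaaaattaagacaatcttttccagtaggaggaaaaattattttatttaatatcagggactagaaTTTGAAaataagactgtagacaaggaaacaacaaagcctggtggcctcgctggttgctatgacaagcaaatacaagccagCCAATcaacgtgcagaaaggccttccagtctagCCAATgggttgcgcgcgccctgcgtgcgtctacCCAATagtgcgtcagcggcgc
Cdk1: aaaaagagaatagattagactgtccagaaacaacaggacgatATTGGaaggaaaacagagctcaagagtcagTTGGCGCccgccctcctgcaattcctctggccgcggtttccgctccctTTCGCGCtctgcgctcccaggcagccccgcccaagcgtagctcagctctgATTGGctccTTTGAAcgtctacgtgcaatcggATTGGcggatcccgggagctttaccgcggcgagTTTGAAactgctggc

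Levels per transcript length were compared by FPKM (fragments per kilobase of transcript, scaled to the number of fragments). Pcna, the sliding clamp, was the most abundant of the 40 genes with a mean of 83.4 FPKM over the 12 mice and a range from 71.5 to 95.6 FPKM. It was followed at a distance by Top2a, the topoisomerase that untangles sister chromatids, with 32.2 FPKM (22.1 to 39.7), and by Mki67, the gene of the proliferation antigen Ki-67, with 27.5 FPKM (19.0 to 32.4). Pcna did not overlap with Top2a in any mouse, whereas the ranges of Top2a, Mki67, Ccna2 (25.8 FPKM) and Cdc20 (25.4 FPKM) overlapped over the mice. The least abundant were Gins1 (2.84 FPKM), Pole (2.78 FPKM) and Cdc6 (1.89 FPKM), which overlapped as well.

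The comparison of Model with Ctrl asks what AOM/DSS did without swimming. Of the 21 replication genes, 11 fell in Model and none rose, with decreases of 0.28 to 0.53 on the log2 scale. Of the 19 mitosis genes none passed the test. Their median log2 fold change was -0.08, or 0.04 with another scaling, against -0.32 for the replication genes and 0.01 for all genes tested. The genes that fell code for the MCM helicase (Mcm2, Mcm4, Mcm5, Mcm6), the GINS subunit Gins2, the licensing factor Cdt1, the clamp Pcna and its loader subunit Rfc4, the lagging-strand enzymes Fen1 and Lig1, and thymidylate synthase (Tyms). A gene was called at an adjusted p under 0.05 by edgeR's quasi-likelihood test with Benjamini-Hochberg adjustment over all genes, and by this rule 32.7% of all genes were called in this comparison, 16.2% lower and 16.5% higher. None of the 40 genes passed the additional cutoff of the study, a fold change over 2 or under 0.5, which 7.43% of all genes passed together with the adjusted p.

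The helicase genes were high in the Ctrl mice and lower in Model. Mcm2 (chr6:88883474-88898780) was at 62.2, 56.7 and 57.7 CPM in the Ctrl mice, 47.6, 49.0 and 50.02 in Ctrl_Swim, 55.4, 38.8 and 41.2 in Model and 49.5, 46.4 and 45.6 in Model_Swim. All Model mice lay below all Ctrl mice, Model 1 only just, and the log2 fold change was -0.38 ± 0.11 (SE), adjusted p = 0.0250. Mcm6 (chr1:128331575-128359705), whose promoter with 4 E2F matches is printed above, was at 106.8, 105.9 and 102.2 CPM in Ctrl and 87.5, 61.5 and 83.0 in Model, a log2 fold change of -0.44 ± 0.12 (SE), adjusted p = 0.0163. Model 2 was the lowest of all 12 mice in this gene. Mcm5 (chr8:75109468-75128439) was nearly identical in the 3 Ctrl mice, with 70.6, 69.4 and 70.3 CPM, and was at 54.9, 47.2 and 57.3 CPM in Model, again without overlap. Its log2 fold change of -0.40 ± 0.08 (SE), adjusted p = 0.00465 passed the threshold in all 23 alternative analyses, as did those of Rfc4 and Lig1. Of the other genes that fell, Tyms passed in 17, Cdt1 and Fen1 in 16, Mcm6 in 15, Mcm2 and Pcna in 10, and Mcm4 and Gins2 in only 4 of the 23. Mcm4 fell by 0.28 on the log2 scale, while Mcm3 and Mcm7 did not pass the test, with log2 fold changes of -0.22 (95% confidence interval -0.50 to 0.05) and -0.20 (95% confidence interval -0.42 to 0.02).

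Genes of the other steps at the replication fork followed. Rfc4 (chr16:23113948-23127730), a subunit of the complex that loads PCNA, was at 14.3, 15.3 and 12.1 CPM in Ctrl and 10.3, 9.75 and 8.94 in Model and gave the largest decrease of the 40 genes, -0.53 ± 0.11 (SE), adjusted p = 0.00635. Lig1 (chr7:13277175-13311426), which seals Okazaki fragments, was at 73.9, 67.3 and 72.1 CPM in Ctrl and 57.6, 49.9 and 56.0 in Model, a log2 fold change of -0.38 ± 0.07 (SE), adjusted p = 0.00281. In both genes the groups did not overlap. Pcna (chr2:132249286-132253180) was at 119.1, 123.3 and 121.9 CPM in Ctrl, 99.6, 97.0 and 111.9 in Ctrl_Swim, 110.6, 87.0 and 100.7 in Model and 94.8, 95.9 and 101.1 in Model_Swim. The Ctrl mice were thus the highest of all in this gene, and its log2 fold change in Model was -0.29 ± 0.09 (SE), adjusted p = 0.0266. Gins2 (chr8:120581266-120589075) was at 12.2, 13.4 and 9.34 CPM in Ctrl and 9.57, 8.33 and 7.05 in Model, which overlapped, with a log2 fold change of -0.48 ± 0.17 (SE), adjusted p = 0.0450. Fen1, which trims the flaps of Okazaki fragments, fell by 0.37, Cdt1 by 0.34 and Tyms, the enzyme that makes thymidylate, by 0.29 on the log2 scale.

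Among the replication genes that did not pass the test were both polymerase genes, Pola1 (-0.16, 95% confidence interval -0.48 to 0.16) and Pole (0.05, 95% confidence interval -0.29 to 0.39), the only replication gene with an estimate above 0, where 50.5% of all genes had one. The subunits of ribonucleotide reductase, which supplies deoxynucleotides, did not pass either. Rrm2 (chr12:24708254-24714146) was at 39.8, 34.5 and 32.5 CPM in Ctrl, 27.3, 22.9 and 35.1 in Ctrl_Swim, 34.5, 25.9 and 24.9 in Model and 29.9, 29.9 and 28.5 in Model_Swim. Model 1 lay among the Ctrl mice and the other two Model mice below them, and the log2 fold change was -0.32 (95% confidence interval -0.67 to 0.03), adjusted p = 0.138. Rrm1, Cdc45, Gins1, Cdc6 and Rfc3 had log2 fold changes of -0.05, -0.27, -0.39, -0.37 and -0.06. In all, 13 of the 21 replication genes had Model and Ctrl mice that did not overlap with Model lower, which held for 23.3% of all genes.

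None of the mitosis genes passed the test in Model. Mki67 (chr7:135689784-135716450) was at 350.9, 323.9 and 289.7 CPM in Ctrl, 196.5, 234.9 and 298.0 in Ctrl_Swim, 287.2, 308.2 and 317.5 in Model and 253.8, 249.6 and 222.5 in Model_Swim. The Model mice overlapped with the Ctrl mice, and the log2 fold change was -0.08 (95% confidence interval -0.37 to 0.21). Top2a (chr11:98992947-99024199) was at 207.0, 203.6 and 175.5 CPM in Ctrl, 118.4, 127.6 and 170.2 in Ctrl_Swim, 204.2, 180.0 and 183.7 in Model and 149.4, 152.0 and 150.7 in Model_Swim, with a log2 fold change of -0.04 (95% confidence interval -0.31 to 0.22) in Model. Both intervals leave out a decrease as large as that of Rfc4, the largest among the members. They include decreases as large as those of Pcna (-0.29) and Tyms (-0.29). That of Mki67 also includes the replication median of -0.32. Ccnb1 (chr13:100778739-100786486), a cyclin that activates Cdk1 for entry into mitosis, was at 47.5, 43.5 and 36.4 CPM in Ctrl, 21.8, 26.4 and 36.5 in Ctrl_Swim, 43.5, 40.7 and 38.6 in Model and 30.2, 34.9 and 30.6 in Model_Swim, with -0.05 (95% confidence interval -0.40 to 0.30) in Model. Cdk1 (chr10:69335146-69352912) was at 47.3, 47.8 and 39.8 CPM in Ctrl, 25.6, 31.2 and 41.3 in Ctrl_Swim, 41.9, 34.5 and 37.8 in Model and 35.1, 34.0 and 30.3 in Model_Swim, with -0.24 (95% confidence interval -0.57 to 0.09) in Model. The Cdk1 interval is wide and includes a decrease as large as that of Rfc4. Closest to the threshold was Ccnb2 (chr9:70407689-70421554), the other B-type cyclin, at 47.7, 48.8 and 40.7 CPM in Ctrl and 34.4, 37.0 and 35.0 in Model. These groups did not overlap, and the log2 fold change was -0.36 ± 0.13 (SE), adjusted p = 0.0586. Of the 19 mitosis genes it was the only one with an unadjusted p under 0.05, which 45.2% of all genes had, and the only one whose groups did not overlap. Ccnb2 was called lower in 4 of 23 alternatives, with only the groups compared (adjusted p = 0.0324), with the replicate number as a block (0.0368), without Ctrl_Swim 2 (0.0332) and without Ctrl_Swim 4 (0.0242), all by edgeR. DESeq2 called 11 replication genes and 0 mitosis genes, and its share over all genes is not given here. The difference between the lists was not itself tested.

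**Figure D2:**
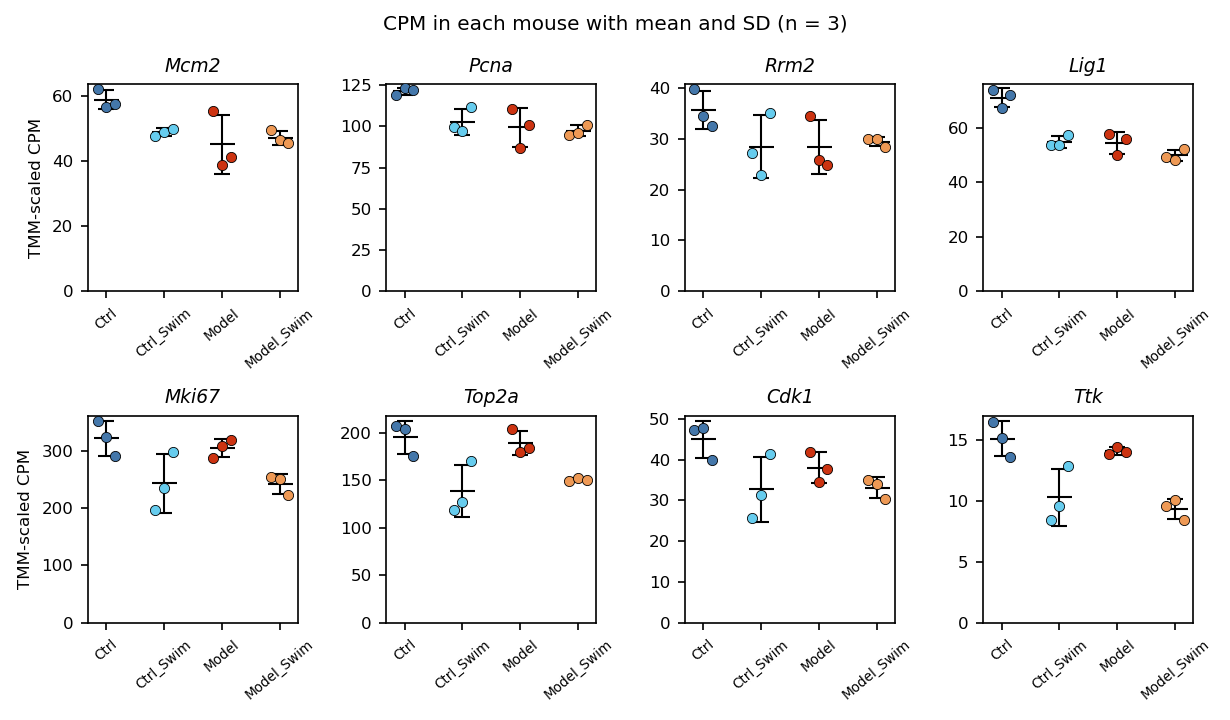
TMM-scaled CPM in each mouse (points) with the group mean and SD (bars, n = 3), for 4 replication genes (top) and 4 mitosis genes (bottom), with axes from 0. In Lig1 and Pcna the Ctrl mice stand above the 3 other groups, and in Mki67, Top2a and Ttk the Model mice stand above the Model_Swim mice.

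The count of replication genes called lower rested on the scaling and on single libraries. With library totals in place of TMM, an alternative chosen after seeing the data, 3 genes were called (Mcm5, Rfc4 and Lig1), the median of all genes shifted to 0.12, and the replication median relative to it was unchanged at -0.33, while that of the mitosis genes relative to all genes was -0.08. The median of the mitosis genes itself turned from -0.08 to 0.04 under that scaling and with FPKM values, and to 0.01 without Ctrl 1, so that no direction can be given for it, while that of the replication genes was negative in all 23 alternatives. Without Ctrl 2 only 3 replication genes were called, without Model 2 only 4, without Ctrl 1 5, without Ctrl 3 6, and without Model 3, Model_Swim 2 or Model_Swim 3 7 each. Without both Model 1 and Model 3, the mice with acinar RNA, the medians were -0.50 for the replication genes and -0.09 for the mitosis genes. That fit, also chosen after seeing the data, leaves 1 Model mouse that is assumed to vary like the other groups.

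Markers of several cell types moved with this comparison, in which 16.5% of all genes were called higher and 16.2% lower. Of 8 epithelial genes 6 fell in Model, and their summed level was 9099 to 9618 CPM in Model against 12237 to 13934.5 CPM in Ctrl, without overlap. The 8 colonocyte genes summed to 2169 to 7432 CPM in Model and 9343 to 9951 CPM in Ctrl, with 2 genes lower and 1 higher. Of 7 macrophage genes 7 rose, of 6 fibroblast genes 6, of 6 T cell genes 5, of 8 B cell genes 7 and of 6 neutrophil genes 4. Of 7 goblet cell genes 3 fell. Of 7 crypt stem cell genes 1 fell and 0 rose, with 5 estimates above 0 and 2 below. Their sums of 256 to 495 CPM in Model and 266 to 300 CPM in Ctrl overlapped. Of 7 germinal centre genes 3 rose and 1 fell, and their sums of 53.4 to 61.6 CPM in Model and 35.2 to 45.8 CPM in Ctrl did not overlap. Their part in the result was not tested.

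**Figure D3:**
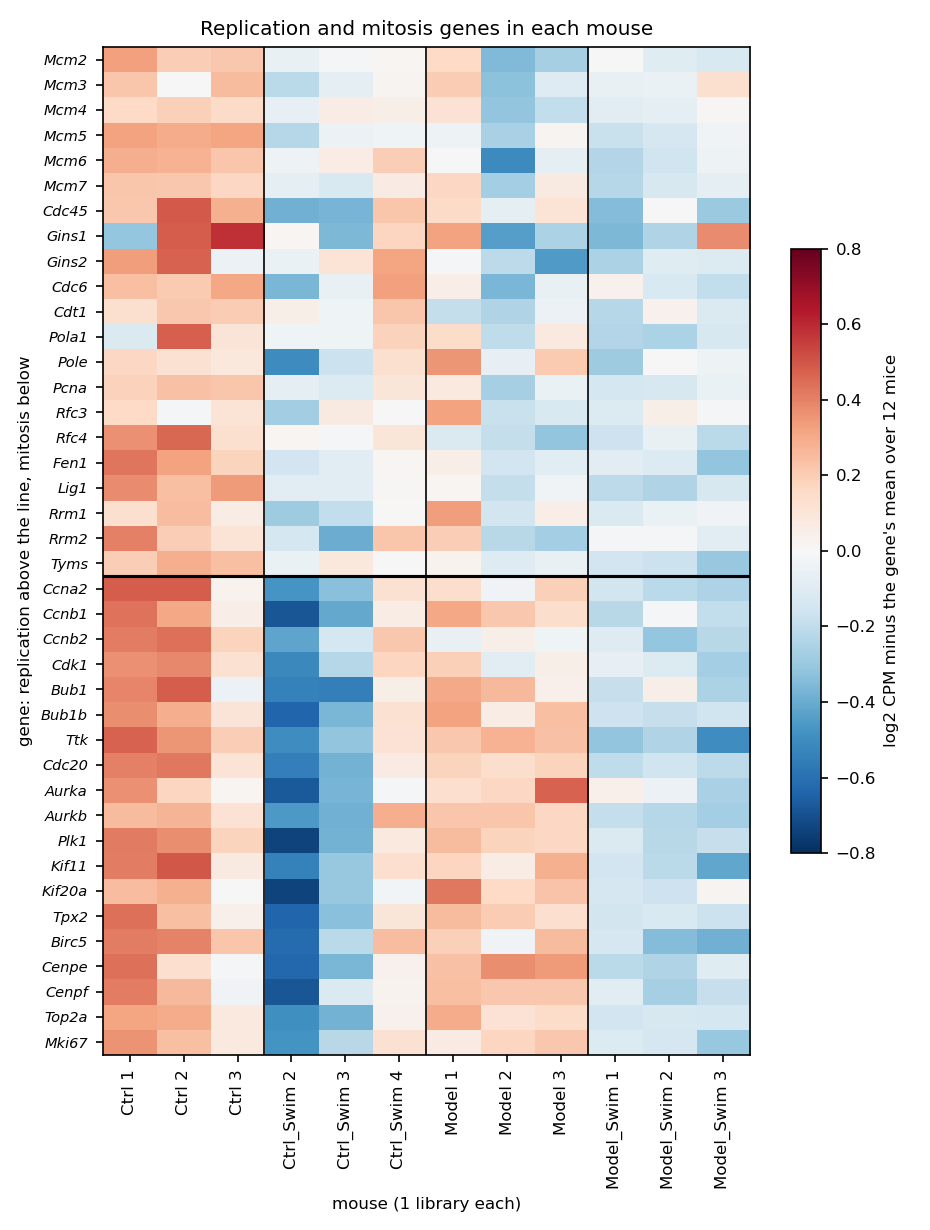
Deviation of log2 CPM from the mean of each gene over the 12 mice, with 1 column per mouse and 1 row per gene, the 21 replication genes above the thick line and the 19 mitosis genes below it. Ctrl 1 and Ctrl 2 are high in both blocks, Ctrl_Swim 2 is low in most mitosis genes, Model 2 is low in most replication genes, and the Model_Swim mice are low in both blocks.

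In mice without AOM/DSS, swimming was compared with no swimming. All 40 genes had lower estimates in Ctrl_Swim than in Ctrl, whereas 50.0% of all genes had higher ones. Only Mcm5 and Lig1 passed the test, both lower, against 0.969% of all genes called and 0.801% called lower. The median log2 fold change was -0.26 in the replication genes and -0.51 in the mitosis genes, against 0.00 for all genes. An unadjusted p under 0.05 was found in 10 of 21 replication genes and 19 of 19 mitosis genes, and in 17.6% of all genes. No mitosis gene passed this test after adjustment, so none is shown by it to be lower, and the lowest adjusted p among them was 0.0692.

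Mcm5 was at 48.3, 54.6 and 55.1 CPM in Ctrl_Swim, below all Ctrl mice, with a log2 fold change of -0.41 ± 0.08 (SE), adjusted p = 0.0442. Lig1 was at 53.5, 53.8 and 57.3 CPM, also below all Ctrl mice, with -0.37 ± 0.07 (SE), adjusted p = 0.0383. Both genes also fell in Model against the same Ctrl mice, which the comparisons share, by 0.40 and 0.38. Of the 21 replication genes, 11 had groups that did not overlap, all lower in Ctrl_Swim, and of the 19 mitosis genes 6 (Ttk, Cdc20, Aurka, Plk1, Kif20a and Top2a). Among all genes 14.9% were lower without overlap.

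The mitosis genes varied widely among the Ctrl_Swim mice. Cdc20 (chr4:118432901-118437343), the activator of the anaphase-promoting complex, was at 59.0, 59.6 and 48.1 CPM in Ctrl and 30.5, 34.2 and 46.5 in Ctrl_Swim, with a log2 fold change of -0.58 ± 0.13 (SE), adjusted p = 0.0692. Plk1 (chr7:122159435-122169884), the Polo kinase, was at 48.9, 47.4 and 41.4 CPM and 22.0, 28.2 and 38.6 CPM, with -0.63 ± 0.16 (SE), adjusted p = 0.0908. Both kept a small gap between the groups, and Ctrl_Swim 2 lay far below Ctrl_Swim 4. Top2a gave -0.49 ± 0.12 (SE), adjusted p = 0.0897 with Ctrl_Swim 4 just below Ctrl 3, and Mki67 gave -0.40 ± 0.13 (SE), adjusted p = 0.173 with Ctrl_Swim 4 above Ctrl 3. Cdk1 and Ccnb1 gave -0.46 (95% confidence interval -0.79 to -0.12) and -0.59 (95% confidence interval -0.94 to -0.23). Of the replication genes followed throughout, Mcm2 gave -0.27 (95% confidence interval -0.51 to -0.02), Pcna -0.24 (95% confidence interval -0.43 to -0.05) and Rrm2 -0.32 (95% confidence interval -0.67 to 0.03).

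Ctrl_Swim 2 was the lowest of all 12 mice in 17 of the 19 mitosis genes but in 5 of the 21 replication genes, and Ctrl_Swim 4 had the highest summed level of its group in both sets. The calls changed with the mice in the fit. Shares of all genes called are those of the main fit, so the counts of other fits cannot be set beside them. Without Ctrl_Swim 4, 9 mitosis genes passed the test (Ccna2, Ccnb1, Bub1b, Ttk, Cdc20, Aurkb, Plk1, Tpx2 and Top2a) and 0 replication genes, and the mitosis median was -0.72. Without Ctrl_Swim 2 or 3, any 1 of the Ctrl mice or any 1 of the Model_Swim mice, 0 members passed, and the mitosis median without Ctrl_Swim 2 was -0.34. DESeq2 called 3 replication and 7 mitosis genes lower, and the share of all genes it called is not given here. With library totals 0 members passed, and the medians relative to all genes were -0.25 for replication and -0.50 for mitosis. Beside this, Ctrl_Swim 4 had the highest B cell signal of its group, with 149 CPM summed over 8 genes against 47.2 and 65.3 CPM, and the highest squamous signal, with 326 CPM against 44.0 and 2.34 CPM. The 7 goblet cell genes summed to 13825 to 18019 CPM in Ctrl_Swim and 37677 to 48239.7 CPM in Ctrl, with 2 genes called lower. The 7 crypt stem cell genes summed to 260 to 304 CPM in Ctrl_Swim and 266 to 300 CPM in Ctrl, with 0 genes called. The part of these cells in the result was not tested.

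Within AOM/DSS-treated mice, Model_Swim was compared with Model to ask what swimming changed in the disease. None of the 40 genes passed edgeR's test, and 0.0710% of all genes did, 0.0646% higher and 0.00646% lower. All 19 mitosis genes had lower estimates in Model_Swim, with log2 fold changes from -0.59 to -0.19 and a median of -0.36, and 14 had an unadjusted p under 0.05. The replication genes had 11 estimates below and 10 above 0, where 48.2% of all genes were above 0, a median of -0.03, and 1 unadjusted p under 0.05, that of Tyms. Over all genes 13.6% had an unadjusted p under 0.05 and the median was -0.01. DESeq2 called 1 of the 40 genes, Ttk, and limma on FPKM values called 0. The share of all genes called by these other tests is not given here. The difference between the sets was not tested.

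In 17 of the 19 mitosis genes, all but Cdk1 and Bub1, every Model_Swim mouse lay below every Model mouse, whereas this held for 8.51% of all genes and for 1 of the 21 replication genes. The mitosis genes vary together over the same mice, so their count is not one of independent cases. Ttk (chr9:83834651-83872390), the checkpoint kinase also called Mps1, was at 13.8, 14.4 and 14.0 CPM in Model and 9.57, 10.1 and 8.43 in Model_Swim. The gap between the groups was wide beside the spread within them, and the log2 fold change was -0.59 ± 0.15 (SE), adjusted p = 0.169, with an adjusted p of 0.0389 by DESeq2. Cenpe (chr3:135212563-135273540), the motor that moves chromosomes to the spindle equator, was at 42.7, 47.1 and 46.1 CPM and 31.3, 30.8 and 34.0 CPM, with -0.50 ± 0.15 (SE), adjusted p = 0.229. Aurkb (chr11:69045624-69051664), the kinase of the chromosomal passenger complex, was at 29.6, 29.6 and 28.4 CPM and 22.2, 21.6 and 21.0 CPM, with -0.44 ± 0.16 (SE), adjusted p = 0.277. Mki67 had -0.33 ± 0.13 (SE), adjusted p = 0.315 and Top2a -0.33 ± 0.12 (SE), adjusted p = 0.278, with the Model_Swim mice of Top2a within 3 CPM of each other. Ccnb1 had -0.36 (95% confidence interval -0.72 to -0.01) and Cdk1 -0.20 (95% confidence interval -0.53 to 0.13).

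The roles within mitosis had medians from -0.40 to -0.25. The median was -0.25 for the cyclins and Cdk1 (Ccna2, Ccnb1, Ccnb2, Cdk1), -0.37 for the spindle checkpoint and Cdc20 (Bub1, Bub1b, Ttk, Cdc20), -0.37 for the Aurora and Polo kinases (Aurka, Aurkb, Plk1), -0.37 for the spindle proteins Kif11, Kif20a and Tpx2, and -0.40 for the chromosome and kinetochore genes (Birc5, Cenpe, Cenpf, Top2a, Mki67). Birc5, the survivin gene of the passenger complex, and Kif11, the motor that separates the spindle poles, gave -0.43 (95% confidence interval -0.82 to -0.04) and -0.43 (95% confidence interval -0.79 to -0.08).

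Among the replication genes Tyms (chr5:30038546-30073645) was at 31.3, 28.6 and 29.4 CPM in Model and 27.6, 27.2 and 24.9 in Model_Swim, without overlap, with -0.17 ± 0.07 (SE), adjusted p = 0.329. Lig1, with -0.13 (95% confidence interval -0.28 to 0.02), and Pole, with -0.28 (95% confidence interval -0.62 to 0.06), came next by p. The intervals of Mcm2, Pcna and Rrm2 all included 0. They were 0.06 (95% confidence interval -0.19 to 0.31) for Mcm2, -0.03 (95% confidence interval -0.22 to 0.16) for Pcna and 0.05 (95% confidence interval -0.30 to 0.40) for Rrm2. The replication median rested on the Model mice. It was -0.12 without Model 2 and 0.05 without Model 1, and 0.16 without both Model 1 and Model 3, while the mitosis median was -0.40, -0.35 and -0.31 in the same fits.

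The 8 B cell genes moved with this comparison. They summed to 141 to 161 CPM in Model and 46.1 to 73.7 CPM in Model_Swim, and all 8 were lower without overlap although 0 passed the test. The 7 germinal centre genes, which mark a B cell compartment that divides rapidly, summed to 53.4 to 61.6 CPM in Model and 45.3 to 55.5 CPM in Model_Swim, and 0 of 7 passed. The 8 epithelial genes summed to 9099 to 9618 CPM in Model and 10119 to 10791 CPM in Model_Swim, and the 8 colonocyte genes to 2169 to 7432 CPM and 8795.5 to 9361 CPM, neither with overlap and with 0 genes called. The 7 crypt stem cell genes summed to 256 to 495 CPM in Model and 352 to 365 CPM in Model_Swim, which overlapped, with 0 genes called. The part of these cells in the result was not tested.

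**Figure D4:**
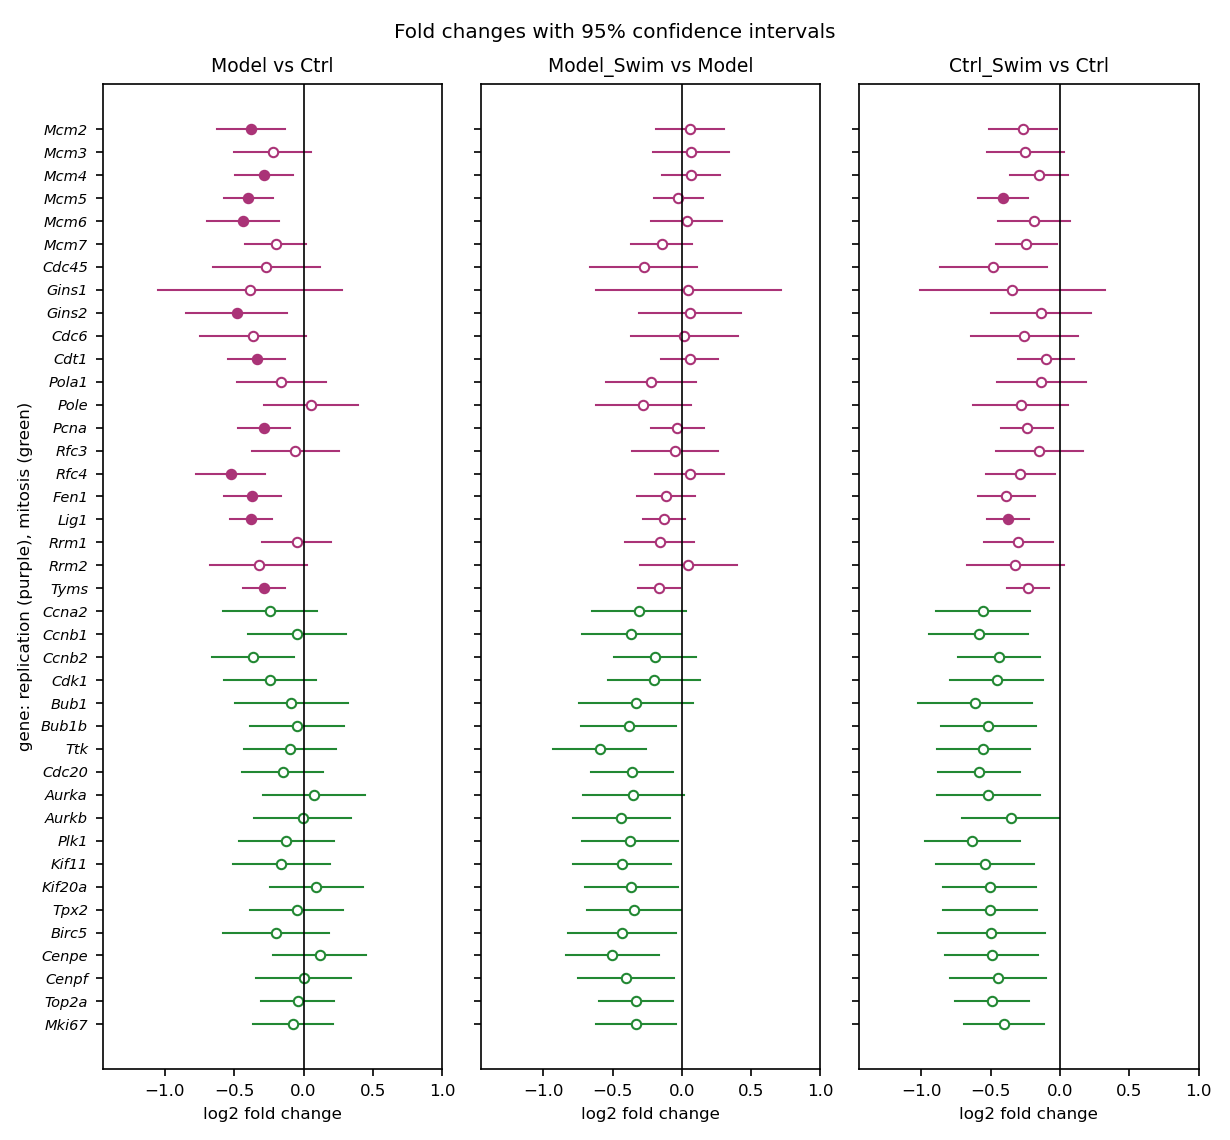
Log2 fold change of each gene with its 95% confidence interval in 3 comparisons, replication genes in purple and mitosis genes in green, with filled points at an adjusted p under 0.05. Filled points number 11 in Model vs Ctrl and 2 in Ctrl_Swim vs Ctrl, and in Model_Swim vs Model all mitosis estimates lie below 0 while the replication estimates lie on both sides.

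Between the swimming groups, Model_Swim and Ctrl_Swim, no member passed the test, where 5.18% of all genes did, 3.49% higher and 1.69% lower. The median log2 fold change was -0.08 in the replication genes and 0.07 in the mitosis genes, against -0.01 for all genes, and Tyms alone had an unadjusted p under 0.05, against 22.4% of all genes (-0.22 ± 0.07 SE, adjusted p = 0.0883). The mitosis median was 0.27 without Ctrl_Swim 4 and -0.08 without Ctrl_Swim 2. The next replication genes by p were Lig1 (-0.14, 95% confidence interval -0.29 to 0.02) and Cdt1 (-0.18, 95% confidence interval -0.38 to 0.02), and the first mitosis genes Kif20a (0.23, 95% confidence interval -0.10 to 0.57), Aurka (0.24, 95% confidence interval -0.13 to 0.61) and Ccnb1 (0.17, 95% confidence interval -0.19 to 0.53). Of the replication genes 6 and of the mitosis genes 13 had estimates above 0, as 48.2% of all genes had. In 5 replication genes (Gins2, Pola1, Rfc4, Lig1 and Tyms) the Model_Swim mice all lay below the Ctrl_Swim mice, as in 16.4% of all genes. The genes followed throughout gave -0.05 (Mcm2), -0.08 (Pcna), 0.05 (Rrm2), -0.01 (Mki67), 0.12 (Top2a) and 0.02 (Cdk1). DESeq2 also called 0 members.

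The interaction asks whether swimming acted differently with and without AOM/DSS. It gave 0 called genes among the members and 0% among all genes by edgeR, with 2 of 40 members (Mcm5 and Lig1) and 19.0% of all genes at an unadjusted p under 0.05, and DESeq2 called 0 members. The difference between the swimming effects was 0.39 ± 0.11 (SE), adjusted p = 0.137 in Mcm5, where swimming was followed by a lower level without AOM/DSS (-0.41) and by -0.03 with it. In Lig1 it was 0.25 ± 0.10 (SE), adjusted p = 0.214 and in Rfc4 0.34 ± 0.16 (SE), adjusted p = 0.273. The mitosis genes with the smallest p were Ccnb2 (0.25, 95% confidence interval -0.17 to 0.67), Cdk1 (0.26, 95% confidence interval -0.21 to 0.73) and Cdc20 (0.22, 95% confidence interval -0.19 to 0.64). Of all genes 50.0% were above 0, against 20 of 21 and 16 of 19 members. The median was 0.22 over the replication genes and 0.16 over the mitosis genes, and no member is shown to respond differently to swimming in the 2 settings. A fit without Model 1 and Model 3 leaves Model 2 as the only Model mouse, so its calls are not given. Model 2 was the lowest of all 12 mice in the helicase genes Mcm2, Mcm4, Mcm5 and Mcm6.

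Replication and mitosis genes were then set against each other within each mouse. For each mouse the median deviation of log2 CPM from the gene's mean over the 12 mice was taken over each set. In Ctrl it was 0.22, 0.24 and 0.20 for replication and 0.41, 0.31 and 0.08 for mitosis. In Ctrl_Swim it was -0.08, -0.06 and 0.10 for replication and -0.55, -0.34 and 0.10 for mitosis. In Model it was 0.12, -0.22 and -0.06 for replication and 0.23, 0.16 and 0.19 for mitosis. The Model_Swim mice had -0.17, -0.10 and -0.08 for replication and -0.15, -0.19 and -0.22 for mitosis. Mitosis thus stood above replication in all 3 Model mice, by 0.11, 0.38 and 0.25, and in none of the Ctrl_Swim mice by more than 0.01, with differences of -0.47, -0.28 and 0.00. In Ctrl the differences were 0.19, 0.07 and -0.12 and in Model_Swim 0.02, -0.09 and -0.14. The means ± SD of the difference were 0.04 ± 0.16 in Ctrl, -0.25 ± 0.24 in Ctrl_Swim, 0.25 ± 0.14 in Model and -0.07 ± 0.08 in Model_Swim (n = 3 each). No test was made of these scores, which share their genes and their mean over the mice.

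**Figure D5:**
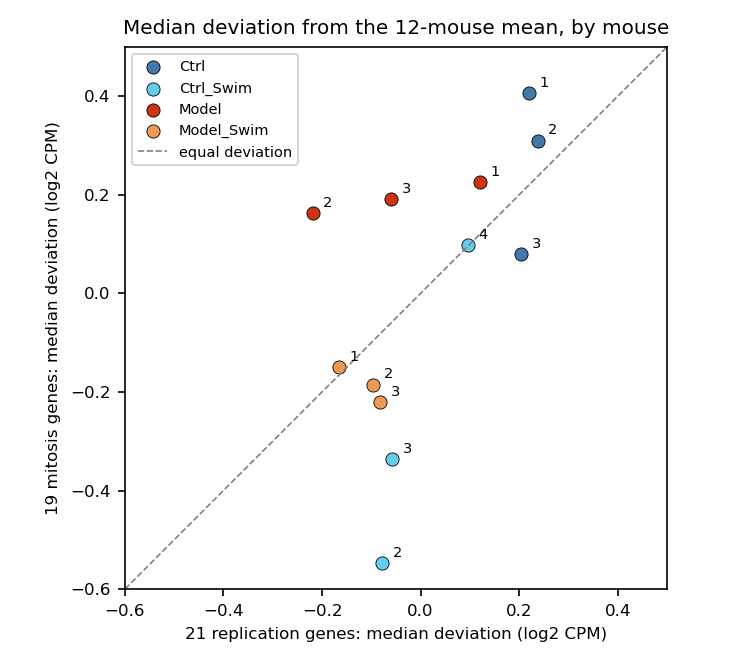
Median deviation of log2 CPM from the 12-mouse mean over the 19 mitosis genes (vertical) against that over the 21 replication genes (horizontal), 1 point per mouse with its number, and a dashed line of equal deviation. The 3 Model mice lie above the line, Ctrl_Swim 2 and 3 lie below it, and the Model_Swim mice lie close together.

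In summed CPM the 21 replication genes gave 966.5, 967.1 and 942.4 in Ctrl, 751.2, 780.7 and 867.0 in Ctrl_Swim, 887.8, 683.7 and 788.5 in Model and 738.1, 761.1 and 782.2 in Model_Swim. The 19 mitosis genes gave 1379, 1322 and 1117 in Ctrl, 728.9, 861.8 and 1135 in Ctrl_Swim, 1210, 1163 and 1210 in Model and 963.2, 946.1 and 903.9 in Model_Swim. Ctrl mice thus had the highest replication sums, and in the mitosis sums the Model mice lay between the Ctrl mice. Ctrl 1 and Ctrl 2 were the highest of the 12 mice in 14 of the 21 replication genes and 16 of the 19 mitosis genes, and Model 2 was the lowest in 9 replication genes and in 0 mitosis genes.

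Other genes of the same processes were read from lists that do not contain the 40 members. Of 43 further replication genes, 11 fell in Model against Ctrl and 0 rose, with a median of -0.17, where 16.2% of all genes were called lower and 16.5% higher. Among those that fell were Rnaseh2b, a subunit of the enzyme that removes ribonucleotides from DNA, and Gmnn, the inhibitor of Cdt1. Rnaseh2b gave -0.62 ± 0.13 (SE), adjusted p = 0.00590 and Gmnn -0.61 ± 0.09 (SE), adjusted p = 0.00135. Pold2, Pole3, Rfc2, Rfc5, Rpa3, Rnaseh2c, Dtl and Slbp fell as well. Of 60 further mitosis genes 1 rose and 2 fell, with a median of -0.04. Sgo2a, a protector of centromeric cohesion, rose (0.44 ± 0.13 SE, adjusted p = 0.0289), and the kinetochore gene Spc24 (-0.45 ± 0.15 SE, adjusted p = 0.0426) and the checkpoint gene Bub3 (-0.19 ± 0.06 SE, adjusted p = 0.0381) fell.

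In Model_Swim against Model 0 of the 43 and 0 of the 60 genes passed the test by edgeR. Of the 60 mitosis genes, 59 had negative estimates, 29 an unadjusted p under 0.05 and 46 groups that did not overlap with Model_Swim lower, and the median was -0.35. Over all genes these shares were 13.6% for the p-value and 8.51% for the groups. The 43 replication genes had 2 such p-values, 4 such genes and a median of -0.06. In Ctrl_Swim against Ctrl, Rnaseh2c was the only one called (-0.41 ± 0.08 SE, adjusted p = 0.0431). The medians there were -0.14 for replication and -0.44 for mitosis. Both lists were chosen with earlier results of these data known, and the genes of a list vary together, so the counts describe these libraries.

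Of 34 regulators of the entry into S phase, 2 rose and 2 fell in Model against Ctrl. Over all genes 16.5% were called higher and 16.2% lower there. Cdkn1c, an inhibitor of cyclin-dependent kinases, was at 5.74, 7.03 and 6.70 CPM in Ctrl and 18.5, 8.28 and 11.4 in Model and rose (0.97 ± 0.25 SE, adjusted p = 0.0126), as it did in Model_Swim against Ctrl_Swim (0.99 ± 0.25 SE, adjusted p = 0.0444). E2f2, an activating E2F factor, was at 29.6, 33.5 and 31.2 CPM in Ctrl, 16.3, 14.9 and 24.01 in Ctrl_Swim, 45.8, 41.3 and 41.5 in Model and 28.6, 22.3 and 26.4 in Model_Swim. It rose in Model (0.45 ± 0.15 SE, adjusted p = 0.0456) and fell in Ctrl_Swim (-0.77 ± 0.16 SE, adjusted p = 0.04998), and in Model_Swim against Model it gave -0.74 ± 0.16 (SE), adjusted p = 0.113. Cdk6, a partner of D-type cyclins, and E2f5, a repressive E2F factor, fell in Model (-0.38 ± 0.10 SE, adjusted p = 0.0180 and -0.29 ± 0.08 SE, adjusted p = 0.0212).

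A set of 8 regulators was followed whatever its values, and none was called in any comparison. Over all genes 32.7% were called in Model against Ctrl. In Model against Ctrl the D-type cyclin genes Ccnd1 and Ccnd2 gave -0.08 and -0.11, Ccne1, the cyclin of the step into S phase, -0.15, E2f1 -0.05 and Myc 0.26. Foxm1, the transcription factor of many mitosis genes, was at 32.9, 30.1 and 26.3 CPM in Ctrl, 18.6, 20.1 and 28.0 in Ctrl_Swim, 30.8, 35.9 and 33.2 in Model and 27.5, 24.96 and 26.4 in Model_Swim. Its Model mice lay above all Model_Swim mice, and its log2 fold changes were 0.16 ± 0.14 (SE), adjusted p = 0.400 in Model against Ctrl, -0.34 ± 0.14 (SE), adjusted p = 0.329 in Model_Swim against Model and -0.42 ± 0.14 (SE), adjusted p = 0.180 in Ctrl_Swim against Ctrl. Cdkn1a, the p21 gene, gave -0.28 in Model. Cdkn2a, which codes for p16 and p19ARF, rested on 2 to 36 counts per mouse and gave 1.85 ± 0.67 (SE), adjusted p = 0.0550 in Model.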

How the data were processed

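Colorectal RNA of 12 samples was sequenced. For quality trimming the study used Trimmomatic, and for alignment to GRCm38.p6 it used HISAT2. The deposited raw counts per gene came from HTSeq-count and the deposited FPKM from Cufflinks, both made by the authors, with 1 column per sample. Tool versions and the strand setting of the counting are not given in the sources used here. All tests used the raw counts (17256953 to 19451055 per library). FPKM served for levels between genes and, as log2(FPKM + 1) with limma, for an alternative test.

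The 40 members and all other lists were chosen with earlier results of these data known. The genes of a list vary together over the mice, so counts of members describe these libraries. Genes were filtered with filterByExpr (minimum count 10), scaled by TMM and fitted over all 4 groups with edgeR's quasi-likelihood test, with Benjamini-Hochberg adjustment over 15484 genes and a threshold of 0.05 (R 4.3.3, edgeR 4.0.16, limma 3.58.1). The DESeq2 test (1.42.0), which the study used, was an alternative. Scripts were tested on simulated data. Scores used log2 CPM with a prior count of 2. Gene positions and promoters came from RefSeq for GRCm38.p6.

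The members to describe were Mcm2, Pcna, Rrm2, Mki67, Top2a, Cdk1 and Ccnb1. Per comparison, up to 3 replication and 3 mitosis members were added, with the largest change among those called, or the smallest p where none was called. Values by mouse were given for these, except for Ccna2, Pole, Cdt1, Kif20a and Aurka. Of each further list up to 3 called genes were described per comparison, and some items are not reported here. Mcm5 and Lig1 in Model against Ctrl, Ccnb2 and the promoters printed were chosen after their values were seen. Alternatives were other scalings, filters, tests and samples in the fit, and leaving out each mouse in turn. Those with library totals and without both Model 1 and Model 3 were added after seeing the data. Shares of all genes called are given for the main fit only. Replicates differed by more than sampling noise, so none were merged.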

Additional observations from a re-analysis of the deposited data

How the results depend on the processing

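In Model against Ctrl 11 members were called lower. This became 7 with only the groups compared, 3 with limma on log2(FPKM + 1), log2(FPKM + 0.1) or without the FPKM filter, 3 with library totals, 0 with the fold cutoff, and 3 to 13 when 1 mouse was left out. In Ctrl_Swim against Ctrl the 2 members became 1 with DESeq2 size factors, 10 with DESeq2, 0 with no filter on low counts, the fold cutoff, library totals or any of the limma fits, and 0 to 9 when 1 mouse was left out. DESeq2 called 1 member lower in Model_Swim against Model. No count is given for the fit without both Model mice with high acinar RNA, which leaves 1 Model mouse. The counts of these other fits have no share over all genes beside them. The cause of these changes was not tested. Removing the acinar genes before scaling changed no count.

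The replication median moved in Model against Ctrl to -0.18 (limma, pseudocount 1, with or without the filter), -0.22 (pseudocount 0.1), -0.21 (library totals) and -0.50 (without both mice). In Ctrl_Swim against Ctrl it moved to -0.12, -0.14 and -0.12 under the first 3 settings, and in the interaction to 0.082, 0.088 and 0.073, and to 0.38 without both mice. In Model_Swim against Model it reversed to 0.16 without both mice. Library totals shifted the median of all genes to 0.12, 0.13 and -0.14 in Model against Ctrl, Ctrl_Swim against Ctrl and the interaction. With 1 mouse left out, the replication median ranged from -0.41 to -0.23 in Model against Ctrl, -0.12 to 0.05 in Model_Swim against Model, -0.30 to -0.20 in Ctrl_Swim against Ctrl, -0.13 to -0.04 in Model_Swim against Ctrl_Swim and 0.11 to 0.29 in the interaction. The mitosis median ranged from -0.13 to 0.01, -0.40 to -0.35, -0.72 to -0.34, -0.084 to 0.27 and -0.032 to 0.33 in the same order, the reversed value of -0.032 being that without Ctrl_Swim 2.

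Samples of different groups share replicate numbers, and of 15 same-numbered pairs 4 had deviations that correlated above 0.1 (-0.26 to 0.56), so the numbers were not taken as pairs. With the replicate number as a block, 11 members were called lower in Model against Ctrl, of which 10 were replication genes (Mcm4 and Gins2 were lost and Rrm2 was gained) and 1 was the mitosis gene Ccnb2. The block gave 0 in Ctrl_Swim against Ctrl and 0 in Model_Swim against Model, and the mitosis median in Ctrl_Swim against Ctrl was -0.68. In Model_Swim against Ctrl_Swim the block moved the mitosis median from 0.07 to 0.26, with 9 unadjusted p-values under 0.05 against 0 without it. In the interaction it moved from 0.16 to 0.33, with 7 against 0, and no member was called in either. Without the block 22.4% and 19.0% of all genes had such a p-value. The shares with the block are not given here, so these counts are not read as particular to the mitosis genes.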
